A study of Mus musculus with 6 samples.

Results

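The transcripts of the X chromosome were compared between the mus and the cas allele in day 0 cells, that is in undifferentiated embryonic stem cells of the female mouse line 16.7 TST, before differentiation was started. Genes were kept when they had at least 20 allele-specific reads summed over the day 0 libraries, replicates 1 and 2, and 351 of the 372 genes listed were kept. The groups were the mus reads and the cas reads of these 2 libraries. The same cells at day 4 and day 7 of differentiation, with 2 libraries each, served to estimate the spread and to follow the day 0 genes later. All libraries carried the genotype label WT, the labels leave TST unexplained, and the line is a single cell line. Day 0 cells were grown with LIF on irradiated mouse embryonic fibroblast feeder cells, and the labels describe removal of the feeders only for the start of differentiation. The series title concerns the action of Jpx RNA on the induction of Xist, and the day 0 libraries give the allele balance from which that induction starts.

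In female mammals 1 of the 2 X chromosomes is silenced when cells of the early embryo differentiate. The noncoding RNA Xist spreads over the chromosome that transcribes it, and genes on that chromosome are then shut off, apart from escape genes that stay active. Undifferentiated mouse embryonic stem cells have not yet silenced either X chromosome. In cells whose X chromosomes come from 2 mouse subspecies, sequence differences within a transcript tell which copy a read came from. The mus share used below is the percent of the allele-specific reads of a gene that came from the mus allele, so 50% means equal use. The file headers name the cas copy as the active and the mus copy as the inactive X, which describes the differentiated cells.

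The day 0 libraries held 113708 and 124488 allele-specific reads over all genes, and the median gene with at least 20 reads had 134.5 and 169 reads per library. Expression of these genes ranged from 2.18 to 906 TPM, a length-scaled measure of transcript abundance, with a median of 45.9 TPM. The line carried its stem cell markers: the 4 of 9 listed markers that lie on the X chromosome, Nr0b1, Dusp9, Eras and Tfe3, summed to 1181 and 1214 TPM before differentiation, and to 417.9 and 437.1 TPM on day 4 and 422.6 and 415.4 TPM on day 7. Their mean TPM on days 0, 4 and 7 differed in course. Nr0b1 (324, 67.6 and 13.8) and Eras (155, 83.6 and 6.59) fell throughout. Tfe3 fell less (175, 131 and 121), and Dusp9 rose again after day 4 (545, 145 and 278). Fibroblast markers were also present. Of 13 listed, 5 were among the X-linked genes measured here: Bgn, Timp1, Fhl1, Flna and Msn. They summed to 902.8 and 877.9 TPM at day 0, 620.1 and 644.8 TPM at day 4 and 803.6 and 791.9 TPM at day 7. None of the 5 was at 0. The sum joins genes that went different ways in mean TPM on days 0, 4 and 7. Bgn (90.8, 1.89 and 27.7) and Timp1 (185, 44.7 and 58.8) were lower later, and Fhl1 (57.4, 77.0 and 121) was higher. Flna (367, 348 and 393) and Msn (190, 161 and 197) changed less. The other markers of both lists, autosomal or absent from the genes measured, were not analysed here. In bulk RNA the number of cells of a type and the RNA per cell cannot be told apart.

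Both alleles were used almost equally over the chromosome as a whole. Summed over the 351 genes, mus supplied 55222.5 and 60477 reads and cas 58368.5 and 63908.5 reads. The mus share was 48.6% in both libraries, with Wilson 95% intervals from 48.3% to 48.9% in each, which cover counting error only. The median gene had a mus share of 48.2% ± 0.102 (SD, n = 2). In units of expression, the mus copies summed to 15035 and 14559 TPM and the cas copies to 16177 and 15105 TPM. Unless stated otherwise, values are means ± SD of the 2 libraries, and p-values reflect the spread between replicate libraries, pooled over the 3 days and over genes, which may be technical because no label names separate cultures.

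Single genes varied around that balance. The middle 50% of the genes had mean mus shares from 42.4% to 52.3%, and the range from the 5th to the 95th percentile was 31.1% to 62.8%. In both libraries 220 genes (62.7%) lay between 40% and 60%. A mus share below 25% in both libraries was seen at 9 genes, and one above 75% in both at 3 genes, Bgn, Xist and Col4a5. A gene was called when edgeR's quasi-likelihood test of mus against cas reads had an adjusted p under 0.05 after Benjamini-Hochberg adjustment over all 372 genes. Of the 351 genes, 35 had more mus than cas reads, 72 had fewer and 244 were not called. Over all 372 genes tested, 29.0% were called, 9.68% with more and 19.4% with fewer mus reads.

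Part of the excess of genes with fewer mus reads follows the reference chosen. The median gene lay at a log2 ratio of mus to cas reads of -0.11 in replicate 1 and -0.10 in replicate 2. Set against the median gene of each library in place of an equal share, 52 of the 351 genes had more and 52 had fewer mus reads (28.2% called of all 372, 14.2% more and 14.0% fewer), and centring on the median tends to even out the sides by construction. Of the genes called against an equal share, the same 35 with more and 52 of the 72 with fewer mus reads passed against the median gene as well. The counts also leaned on having both replicates: without replicate 1 there were 18 genes with more and 30 with fewer mus reads, and without replicate 2 there were 16 and 29. All 107 called genes lay on the same side of 50% in both libraries, and for 81 of them (26 more, 55 fewer) the Wilson intervals of both libraries excluded 50%. A set of 13 genes with more and 22 with fewer mus reads was called with both replicates and also without either one.

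**Figure D1:**
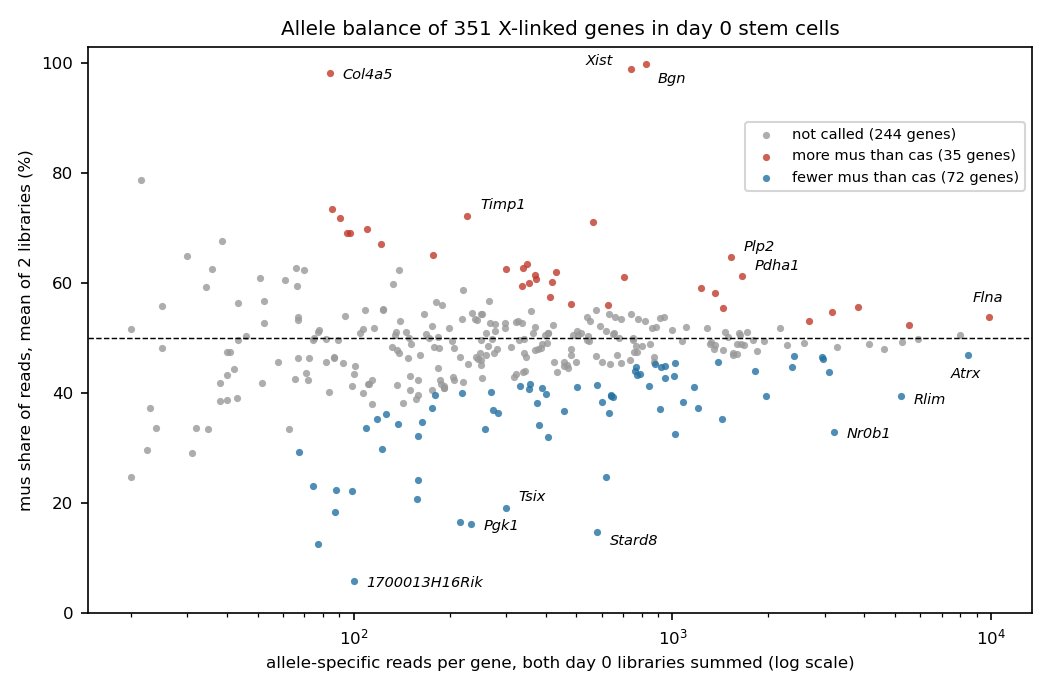
Mean mus share (%) of each of the 351 genes against its allele-specific reads summed over both day 0 libraries (log scale), with genes called for more mus reads in red, for fewer in blue and the others in grey; the dashed line marks 50%. Shares draw closer to 50% as reads increase, and Bgn, Xist and Col4a5 stand alone at the top.

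Depth set how small a departure could be seen. Among 67 genes with under 100 reads, 11 were called (16.4%), and the median difference between the shares of the 2 libraries was 9.63 percentage points. Among 60 genes with 1000 reads or more, 28 were called (46.7%), and the replicates differed by a median of 1.31 points. The share itself also spread less among well-covered genes, with an SD over genes of 6.04 points at 1000 reads or more and 15.1 points under 100. The call therefore mixes size and depth: 40 called genes lay within 10 points of an equal share, while 24 uncalled genes lay at least 10 points away, with a median of 39.25 reads. The 8 genes with the most reads show the small departures. Atrx, a chromatin remodeller, had 2080.5 and 1877.5 mus reads and 2354 and 2120 cas reads, a mus share of 46.9% ± 0.0358 that was called for fewer mus reads (edgeR adjusted p = 0.00125), though not against the median gene or without replicate 1 (adjusted p = 0.284) or replicate 2 (0.273). Huwe1 at 50.6% ± 0.609 and Usp9x at 49.9% ± 0.267, both enzymes of the ubiquitin system, and Hcfc1, a transcription cofactor, at 49.3% ± 0.229 were not called. Against the median gene, however, Huwe1 was called for more mus reads (edgeR adjusted p = 0.00502). Of the 2 genes just inside the read minimum, Zbtb33 had mus shares of 57.1% and 46.2% and 3830417A13Rik of 23.5% and 26.1%, each from 20 reads in all. Just outside it lay Lancl3 with 19 reads and Igsf1 with 18.

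The X-inactivation centre held genes far to either side of balance. Of its 7 measured genes 5 had enough reads. Of the 5, 1 had more and 2 had fewer mus reads (9.68% and 19.4% of all 372 genes). Xist (X:103460366-103483254 on the GRCm38 build, minus strand) had 334 and 399.5 mus reads and 3 and 5 cas reads. Its mus share was 98.9% ± 0.245, with Wilson intervals from 97.4% to 99.7% and from 97.1% to 99.5%, at a low level of 10.9 and 11.7 TPM. Tsix, which is transcribed across Xist from the opposite strand and represses it in mouse, lay at the other end. It had 19.5 and 40 mus reads and 101 and 139.5 cas reads, which is a mus share of 19.2% ± 4.31. Split by allele, Tsix had 10.9 and 16.2 TPM from mus and 56.3 and 56.3 TPM from cas. The 2 genes overlap (Tsix spans X:103431517-103484957), and since it is not given whether counting used strand, reads in the overlap may have been assigned to either gene.

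Rlim, an E3 ubiquitin ligase that promotes Xist expression, had 1076 and 984 mus reads against 1580.5 and 1567.5 cas reads. Every count of mus reads was below both counts of cas reads, and the share was 39.5% ± 1.37 (log2 ratio of mus to cas -0.61, SE 0.05, edgeR adjusted p = 3.93e-27, or 0.00165 with the day 0 libraries alone). Chic1, at 51.1% ± 0.0803, and the noncoding RNA gene Ftx, at 45.1% ± 0.0862 of 101 reads, were not called. Jpx itself gave 3 reads at 0.279 and 0.217 TPM, so it had no usable share at day 0.

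**Figure D2:**
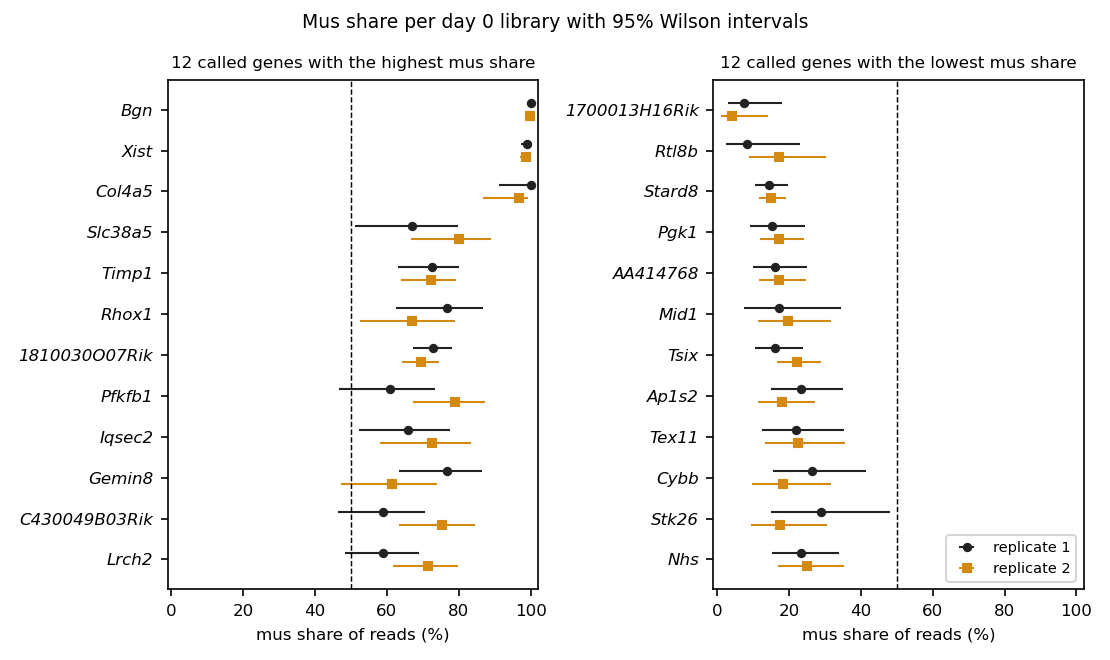
Mus share (%) in replicate 1 (black circles) and replicate 2 (orange squares) with Wilson 95% intervals for the 12 called genes with the highest and the 12 with the lowest mean mus share; the dashed line marks 50%. Bgn, Xist and Col4a5 are close to 100%, the others on the left have means from 65.2% to 73.5%, and those on the right have means from 5.91% to 24.2%.

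Among genes of pluripotency and the early embryo, all 12 measured members had enough reads. Their median mus share was 40.5%, beside 48.2% for all 351 genes. In edgeR's test 7 had fewer and 2 had more mus reads (19.4% and 9.68% of all 372 genes). The count depended on the test and the reference: DESeq2 called 1 for fewer and 1 for more, and against the median gene 5 and 2 were called. Nr0b1 (Dax1; X:86191764-86195947, plus strand), an orphan nuclear receptor of the stem cell network, had 461 and 599.5 mus reads and 950.5 and 1205 cas reads. Its mus share was 32.9% ± 0.398, so cas supplied 2.03 times as many reads as mus (log2 ratio of mus to cas -1.02, SE 0.07, edgeR adjusted p = 5.49e-44, or 0.000228 with the day 0 libraries alone). At 107 ± 2.93 TPM from mus and 217 ± 2.07 TPM from cas, it had the largest gap in TPM between the alleles on this list. Without replicate 1 the only list member called was Nr0b1, and without replicate 2 Nr0b1 and Rhox6 were called for fewer and Zfp185 for more mus reads. The adjusted p of the calls lost in this way ran from 0.0711 to 0.595.

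The other members of this list were less sure. Rhox6 at 39.3% ± 1.84 and Rhox9 at 39.8% ± 5.66, homeobox genes of the placenta and germ line, and Eras, a constitutively active Ras protein of stem cells, at 41.1% ± 1.02, were called for fewer mus reads. Morc4 at 39.8% ± 3.35, Xlr3a at 33.6% ± 7.91 and Tex11, a meiotic gene, at 22.2% ± 0.477 completed the 7, and the calls of Morc4 and Xlr3a were lost against the median gene. Zfp185 at 62.1% ± 4.37 and Trap1a, a tumour rejection antigen, at 56.1% ± 1.10 had more mus reads. Dusp9, a phosphatase that dampens ERK signalling and is dosage sensitive in female stem cells, was close to balance with 1077 and 1141 mus reads and 1179.5 and 1220 cas reads, a share of 48.0% ± 0.423 that was not called. The transcription factor gene Tfe3 (49.5% ± 0.731) was not called either. The Rhox and Xlr3 families have close paralogs, whose reads the counting could have split, and Trap1a overlaps Platr21 and Eras overlaps Pcsk1n on opposite strands.

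Of the Rhox cluster, Rhox1 was called for more and Rhox6 and Rhox9 for fewer mus reads in edgeR's test. DESeq2 called none of them (adjusted p = 0.314 for Rhox1, 0.125 for Rhox6 and 0.373 for Rhox9). Rhox1 had 34.5 and 30.5 mus reads and 10.5 and 15 cas reads, a share of 71.8% ± 6.81, beside the shares near 40% of Rhox6 and Rhox9. The difference between these genes was not tested, and the Rhox1 call was lost without replicate 1 (adjusted p = 0.314) or replicate 2 (0.098).

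**Figure D3:**
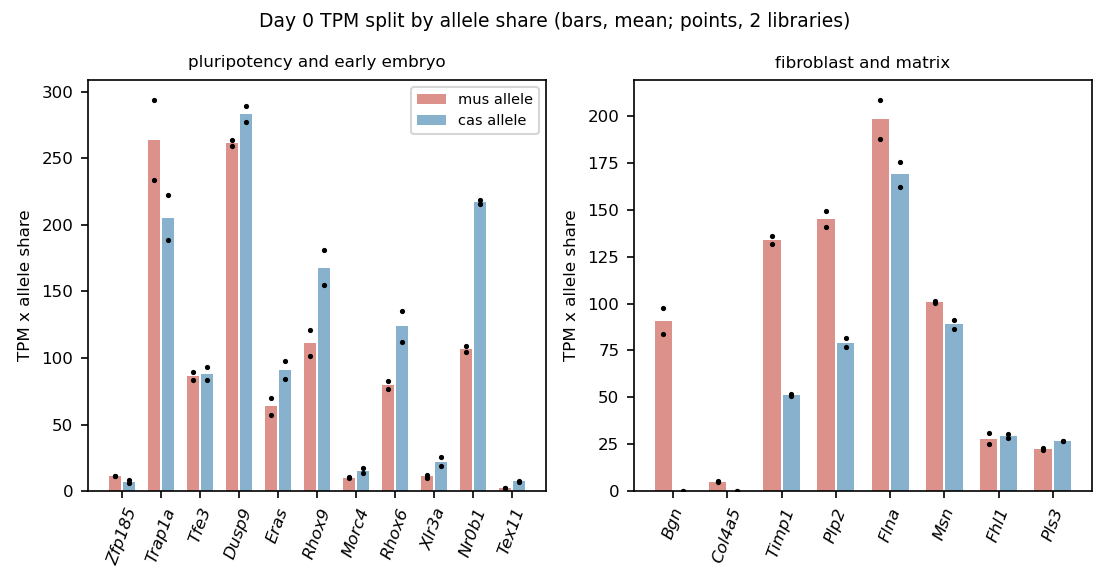
Day 0 TPM multiplied by the share of each allele, mus (red) left of cas (blue), for the members of the pluripotency and early embryo list and of the fibroblast and matrix list that are named in the text; bars are means and points the 2 libraries. Nr0b1 shows 107 TPM from mus and 217 TPM from cas, and Bgn, Timp1 and Plp2 have most of their TPM on the mus side.

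Matrix and cytoskeleton genes of the fibroblast list had a median mus share of 59.4%. Of 18 listed genes 9 were measured and 8 had enough reads. Of the 8, 6 had more mus reads (4 in DESeq2) and none was called for fewer in edgeR's test, at an unadjusted p under 0.05, in DESeq2 or in limma. Over all 372 genes, edgeR's test called 9.68% for more and 19.4% for fewer mus reads. Together the 8 genes had 4345.5 and 4792 mus reads and 3242.5 and 3533.5 cas reads, a share of 57.4% ± 0.205. Without them the other 343 genes had a summed mus share of 48.0%. The share of mouse feeder RNA in these reads was not tested. Bgn (X:73483602-73495933, plus strand), which encodes the matrix proteoglycan biglycan, had 377.5 and 445 mus reads and 0 and 1 cas reads at 83.8 and 97.9 TPM. Its mus share was 99.9% ± 0.159, and the Wilson intervals reached down to 99.0% and 98.7%. Col4a5 (X:141475385-141689234, plus strand), a collagen chain of basement membranes, had 40 and 43 mus reads and 0 and 1.5 cas reads at 5.20 and 4.93 TPM. Its paired neighbour Col4a6 had 14.5 reads, too few to be kept.

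Timp1, an inhibitor of matrix metalloproteinases, had 73.5 and 91 mus reads and 28 and 35 cas reads, which is 72.3% ± 0.135. Plp2, a membrane protein of the secretory pathway, had 426.5 and 565 mus reads and 231.5 and 309 cas reads, which is 64.7% ± 0.122 (log2 ratio of mus to cas 0.87, SE 0.09, edgeR adjusted p = 3.61e-20, or 0.00196 with the day 0 libraries alone). Both libraries agreed closely for these genes, and the 4 calls of Bgn, Col4a5, Timp1 and Plp2 stood without either replicate. The actin crosslinker Flna, with the most reads of all genes, had a small excess at 54.0% ± 0.470, and the membrane-cytoskeleton linker Msn had 53.1% ± 1.07. Their calls were lost without replicate 1 (adjusted p = 0.221 for Flna and 0.166 for Msn) or replicate 2 (0.181 and 0.429). Fhl1 at 48.6% ± 4.77 and Pls3 at 45.6% ± 0.484 were not called. Timp1 lies within Syn1 on the opposite strand, so reads of the pair may be mixed.

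Escape genes, which stay expressed from the silenced X chromosome in differentiated cells, were divided. Of 15 members, 7 had more and 3 had fewer mus reads (9.68% and 19.4% of all 372 genes), and the median share was 50.5%. Besides Xist, 1810030O07Rik stood out with 187 and 213 mus reads and 69.5 and 93.5 cas reads (71.2% ± 2.41). Shroom4 (63.5% ± 2.25), Syap1 (60.8% ± 2.47), the noncoding RNA gene Firre (58.2% ± 1.20), the ribosome assembly gene Utp14a (55.7% ± 0.323) and the histone demethylase gene Kdm5c (52.4% ± 1.13) had smaller excesses. The Kdm5c call was lost without replicate 1 or 2 (adjusted p = 0.606 and 0.268), and that of Syap1 without replicate 1 (0.151). On the other side were Mid1, a microtubule-associated ubiquitin ligase, at 18.4% ± 1.71 of 87.5 reads, 4933407K13Rik at 36.2% ± 3.31 (lost without replicate 1, adjusted p = 0.338, or 2, 0.185) and the translation initiation factor gene Eif2s3x. Eif2s3x had 213.5 and 236.5 mus reads and 339 and 416.5 cas reads, a share of 37.4% ± 1.71. Kdm6a (50.5% ± 4.20), Ddx3x (48.0% ± 0.764), Pbdc1 (47.9% ± 3.12), 5530601H04Rik (49.9% ± 3.13) and Ftx were not called.

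**Figure D4:**
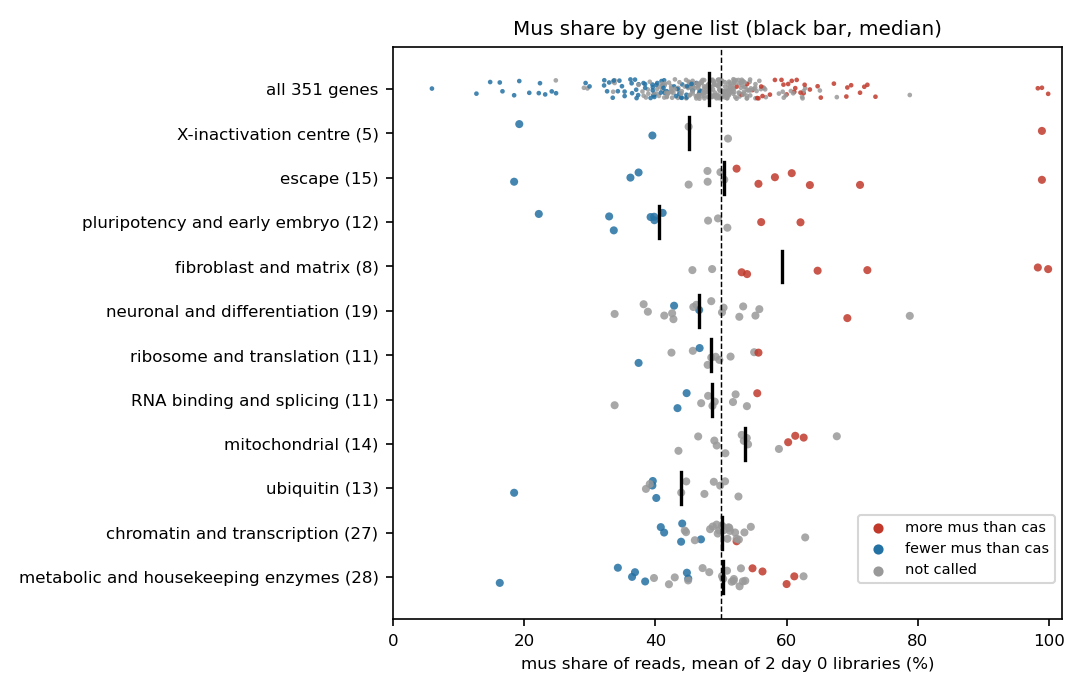
Mean mus share (%) of the members of each gene list and of all 351 genes, with the number of members in parentheses; red points were called for more mus reads, blue points for fewer, and black bars are medians. The medians are 40.5% for pluripotency and early embryo genes, 59.4% for fibroblast and matrix genes and 48.2% for all genes.

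The lists of general cell functions had medians from 43.9% to 53.7%. Among 14 nuclear genes of mitochondrial proteins, 3 had more mus reads (2 in DESeq2) and none was called for fewer in edgeR's test, at an unadjusted p under 0.05, in DESeq2 or in limma, with a median of 53.7%. Of all 372 genes, edgeR's test called 9.68% for more and 19.4% for fewer mus reads. Pdha1, the E1 subunit of pyruvate dehydrogenase, had 548 and 468.5 mus reads and 344.5 and 296.5 cas reads (61.3% ± 0.112), and its call stood without either replicate. Prdx4 (62.6% ± 3.35), a peroxiredoxin, lost its call without replicate 2 (adjusted p = 0.185), and Hsd17b10 (60.2% ± 4.33), a mitochondrial dehydrogenase, without replicate 1 (0.209). Idh3g, Hccs and Ndufb11, the others of this list with the most reads, had shares of 50.7%, 49.3% and 49.0% and were not called.

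The 13 ubiquitin genes had a median of 43.9%. Of them 4 had fewer mus reads (19.4% of all 372 genes did). Against an equal share, none had more in edgeR's adjusted or unadjusted test, in DESeq2 or in limma. Against the median gene, edgeR's test called 3 for fewer and 1, Huwe1, for more mus reads (14.0% and 14.2% of all 372 genes). Rlim and Mid1, which are also on lists above, were among the 4. Klhl13, a substrate adaptor of a cullin ligase, had 393.5 and 387 mus reads and 622.5 and 569.5 cas reads (39.6% ± 1.22). Its call and those of Rlim and Mid1 stood without either replicate, and that of Psmd10 (40.1% ± 0.180) was lost without replicate 1 (adjusted p = 0.242) or replicate 2 (0.257). Uba1, which starts the ubiquitin cascade, had a share of 48.9% ± 0.309.

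The 27 chromatin and transcription genes had a median of 50.1%, with 1 gene, Kdm5c, called for more mus reads and 5 for fewer (9.68% and 19.4% of all 372 genes). The 5 were Atrx, Hdac6 (43.9% ± 2.47), Bcor (44.1% ± 2.75), Phf6 (41.3% ± 0.903) and Taf1 (40.8% ± 1.24), and no call of this list stood without each replicate in turn, with adjusted p from 0.0606 to 0.244 where these last 4 were lost. Among 11 genes of ribosome and translation the median was 48.5%; Utp14a had more and Eif2s3x and Rps4x, a ribosomal protein gene with many processed copies, had fewer mus reads. Rps4x had shares of 49.8% and 43.7%, and its call was lost without replicate 2 (adjusted p = 0.986). Eif1ax at 49.2% and Gnl3l at 48.5% were not called. Of 11 RNA binding and splicing genes, Nono (55.5% ± 2.16) had more and Htatsf1 (44.8% ± 1.12) and Nkap (43.4% ± 1.21) had fewer mus reads, and without replicate 2 none of the 3 was called (adjusted p from 0.118 to 0.247). Rbm3 at 51.8% and Zrsr2 at 49.0% were not called, though Rbm3 was called for more mus reads against the median gene (edgeR adjusted p = 0.0175).

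Among 28 metabolic and housekeeping enzymes, 4 had more and 7 had fewer mus reads (9.68% and 19.4% of all 372 genes) around a median of 50.2%. The glycolytic enzyme gene Pgk1 (X:106187100-106203699, plus strand) had 13 and 25.5 mus reads and 72 and 122.5 cas reads. Its share of 16.3% ± 1.37, at 8.46 and 10.2 TPM from mus and 46.9 and 49.1 TPM from cas, was the lowest on the list. Pgk1 has processed copies elsewhere in the genome, which could take reads. Hprt, a purine salvage enzyme, was on the other side with 200.5 and 230.5 mus reads and 124.5 and 149.5 cas reads (61.2% ± 0.731). Atp6ap2 (60.7% and 59.3%), Lamp2 (56.3%) and Alg13 (54.8%) had more mus reads, calls that were lost when either replicate was left out (adjusted p from 0.0639 to 0.243). Fewer mus reads were called for Pim2 (34.3%), Acsl4 (36.4%), Phka1 (36.9%), Sms (38.4%), Prps2 (44.8%) and Ebp (45.0%), and of these Sms and Acsl4 stood without either replicate, while for example Pim2 was lost without replicate 2 (adjusted p = 0.195) and Phka1 without replicate 1 (0.0585). Prps1, at 47.2%, was not called.

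Of 19 neuronal and differentiation genes, 16 were not called, while 29.0% of all 372 genes were called. Iqsec2 (69.3% ± 4.62) had more mus reads, and Gpc3 (42.8% ± 2.25) and Bex1 had fewer. Bex1 had the highest expression of the 351 genes, at 906 ± 56.0 TPM, with 692 and 680.5 mus reads and 788 and 780.5 cas reads, a share of 46.7% ± 0.127. The Iqsec2 and Bex1 calls were lost without replicate 1 (adjusted p = 0.132 and 0.209) or replicate 2 (0.286 and 0.239), and that of Gpc3 without replicate 2 (adjusted p = 0.221). Gpc4 (45.8%) was not called.

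The strongest leaning to cas was found outside these lists. The lists left out 198 of the 351 genes, of which 11 had more and 41 had fewer mus reads. Over all 372 genes, 9.68% had more and 19.4% had fewer, so the count itself shows no clear leaning of unlisted genes to fewer mus reads. In 1700013H16Rik (X:53742901-53757831, minus strand), 4 and 2 mus reads stood against 48.5 and 45.5 cas reads, a share of 5.91% ± 2.41. Stard8 (X:99003248-99074728, plus strand), which encodes a GTPase-activating protein, had more reads behind its share. It had 34.5 and 51.5 mus reads and 202.5 and 291 cas reads, which is 14.8% ± 0.339 (log2 ratio of mus to cas -2.52, SE 0.14, edgeR adjusted p = 9.09e-60, or 0.000577 with the day 0 libraries alone). Rtl8b at 12.7% ± 6.37, AA414768 at 16.7% ± 0.767, Ap1s2 at 20.8% ± 3.85, Cybb at 22.4% ± 5.82, Stk26 at 23.2% (28.8% and 17.5%) and Nhs at 24.2% ± 1.15 also belonged to the 12 lowest. The calls of Cybb and Tex11 were lost without replicate 1 (adjusted p = 0.0535 and 0.109) or replicate 2 (0.195 and 0.104), and that of Stk26 without replicate 2 (0.302). Rtl8b belongs to a family of near-identical retrotransposon-derived genes, so its reads are uncertain.

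Moderate leaning to cas at good depth was seen in genes picked out here after their values were seen. Slc7a3, a transporter of cationic amino acids that stem cells express, had 251 and 254.5 mus reads and 459.5 and 467 cas reads (35.3% ± 0.0378) at 269 ± 20.6 TPM. AU015836 had 155.5 and 178 mus reads and 340.5 and 347 cas reads (32.6% ± 1.81), and Map7d3, a microtubule-associated protein, 63 and 91.5 mus reads and 224.5 and 238 cas reads (24.8% ± 4.14). All 3 kept their call without either replicate. On the mus side, Slc38a5, an amino acid transporter, had 25.5 and 38 mus reads and 12.5 and 9.5 cas reads (73.5% ± 9.12). Pfkfb1 (69.8% ± 12.7), Gemin8 (69.1% ± 10.8), C430049B03Rik (67.2% ± 11.6) and Lrch2 (65.2% ± 8.89) followed, with replicate SDs of 8.89 points or more. All 5 calls were lost without at least 1 of the replicates, with adjusted p of 0.323 for Slc38a5, 0.380 for Pfkfb1, 0.471 for C430049B03Rik and 0.335 for Lrch2 without replicate 2, and of 0.392 for Gemin8 without replicate 1.

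Neither expression nor place on the chromosome went along with the share to any great extent. Median expression was 55.8 TPM for genes with more mus reads, 55.7 TPM for genes with fewer and 43.4 TPM for genes not called. Across the 351 genes the Spearman correlation was 0.119 between mean mus share and TPM and 0.105 between the shares of neighbouring genes along the chromosome (350 pairs), as descriptions of genes that share their libraries. In windows of 20 Mb, the lowest median was 45.3% from 120 to 140 Mb, where 1 of 35 genes had more and 9 had fewer mus reads. The highest was 50.2% from 60 to 80 Mb, where 5 of 60 genes had more and 3 had fewer. Over all 372 genes, 9.68% had more and 19.4% had fewer. The window with the lowest median was not the one with most calls for fewer mus reads. From 0 to 20 Mb, 5 of 44 genes had more and 14 had fewer, and from 100 to 120 Mb 2 of 45 had more and 13 had fewer. Shares of the same gene in the 2 libraries had Pearson's r = 0.707 across genes, and the differences between libraries were near counting noise (chi-square per degree of freedom 1.08).

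After differentiation the mus share was lower at most genes, whatever the balance at day 0. Genes with more mus reads at day 0 had a median share of 61.5% on that day, 29.6% on day 4 and 6.56% on day 7. Genes with fewer went through 38.4%, 17.0% and 4.22%, and genes not called through 49.0%, 20.9% and 4.49%. These are descriptions, since the day 0 shares chose the groups. At day 4 the mus odds were lower than at day 0 for 32 of the 35 genes with more mus reads, 59 of the 72 with fewer and 224 of the 244 others (adjusted p under 0.05 in edgeR), and at day 7 for 32, 58 and 232. Of all 372 genes, 88.7% were called at day 4 and 90.3% at day 7 in either direction, and 87.9% and 89.8% for lower mus odds. Higher odds were called at day 4 for 3 of the 351 genes (0.806% of all 372) and at day 7 for 2 (0.538%). Bgn had 70.7% mus reads at day 4, when its expression was 1.57 and 2.22 TPM, and 5.57% at day 7 at 28.9 and 26.5 TPM. Col4a5 had 7.70% and 0.739%, while Xist had 99.6% and 99.8%. The cas-leaning Nr0b1 had 39.8% ± 1.89 at day 4 and 40.2% ± 6.38 at day 7.

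**Figure D5:**
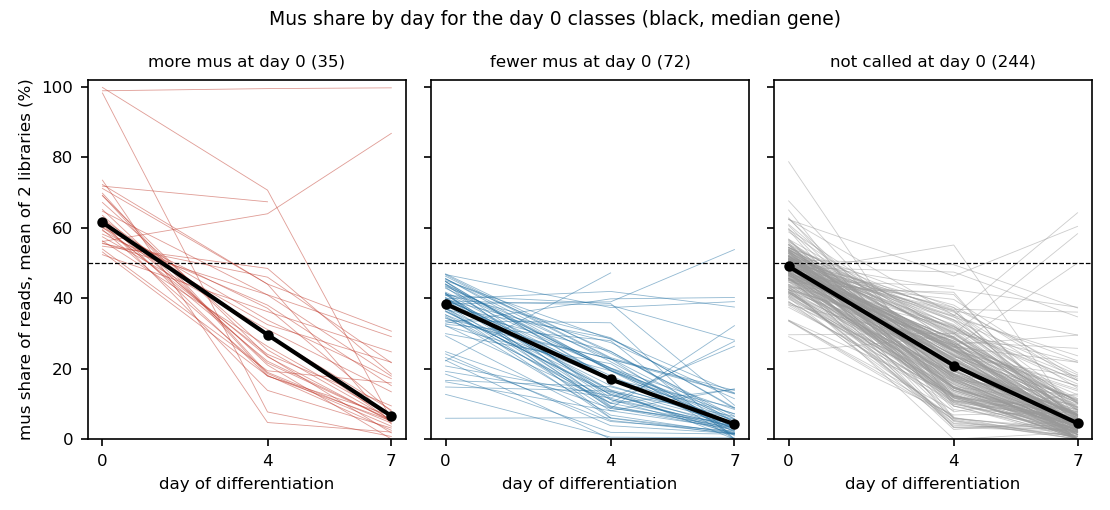
Mean mus share (%) at day 0, 4 and 7 of each gene called for more mus reads at day 0 (left), for fewer (middle) or not called (right); thin lines are genes, drawn for the days on which both libraries had reads, and the black line joins the medians. The medians are 61.5%, 29.6% and 6.56% on the left, 38.4%, 17.0% and 4.22% in the middle, and 49.0%, 20.9% and 4.49% on the right.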

How the data were processed

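RNA came from TRIzol extracts depleted of ribosomal RNA, and libraries were directional, per the labels' protocols. Per gene, allele and library the authors deposited estimated counts of allele-specific reads in steps of 0.5 (45.2% of the day 0 values were not whole). Also deposited were the allele fractions, which equalled the recomputed shares within 5.0e-16, and total expression in TPM. The submitters' processing notes name Trim Galore 0.4.1, STAR, HOMER 4.10, edgeR, limma, GRCm38 and mm10, without saying what each was used for or whether strand entered the counting. Coordinates and overlaps came from GENCODE M21 on GRCm38, where each of the 372 symbols was found on chromosome X.

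Counts were rounded and fitted with edgeR's quasi-likelihood test (version 4.0.16 in R 4.3.3) over the mus and cas columns of all 6 libraries. The model had 1 term for each library and 1 allele term for each day, without scaling one allele to the other. Benjamini-Hochberg adjustment ran over 372 genes. The library terms act as the replicate block, since mus and cas reads of a library come from the same RNA. The common dispersion was 0.00101, with 3 residual degrees of freedom, and the prior degrees of freedom were infinite, so genes were judged by a pooled spread rather than their own. Standard errors were derived from the F statistic. Allele-split expression is TPM times the allele share. Wilson intervals are at 95% and cover counting error only. The model was also run on simulated counts in which every gene had the same dispersion. That run cannot show how the model does for genes whose replicates disagree more. DESeq2 1.42.0, limma 3.58.1, an exact binomial test, other references, read minimums and left-out libraries were alternatives.

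Genes, lists and tests were chosen with earlier results of these data known. By the rule, named genes were all measured members of the lists X-inactivation centre, escape, pluripotency and early embryo, and fibroblast and matrix. To these came the 12 called genes with the highest and the 12 with the lowest share, the 8 with the most reads, the 2 on either side of the read minimum, and the 4 with the most reads of each other list. A few of these are not reported here. Members named beyond it (called members of the other lists, Slc7a3, AU015836 and Map7d3) were chosen after their values were seen. The replicates were compared before use, and both counted as samples because their total reads per gene differed beyond counting noise (chi-square per degree of freedom 4.07). Their mus shares, the quantity tested, differed only near counting noise (1.08). The total reads therefore do not show that the 2 libraries are independent samples for the share.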

Additional observations from a re-analysis of the deposited data

Results flagged for a closer look

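The following results stand out because the effect differs between days in a test of the difference itself, the change of the log2 odds of mus to cas reads from day 0 (edgeR's quasi-likelihood test, adjusted p under 0.05). Against day 0, 315 of the 351 genes had lower mus odds at day 4, and 322 had lower mus odds at day 7. Nr0b1 had higher mus odds at day 4 than at day 0, by 0.43 on the log2 scale (SE 0.13, adjusted p = 0.000928, edgeR), with shares of 38.5% and 41.2% at day 4 and 32.7% and 33.2% at day 0. Tex11 had a log2 odds at day 4 minus day 0 of 1.61 (SE 0.76, adjusted p = 0.0392, edgeR), from 20 and 21 reads at day 4. Xist had a difference of 1.34 at day 4 (SE 0.56, adjusted p = 0.0395, edgeR) and of 2.23 at day 7 (SE 0.68, adjusted p = 0.00494, edgeR), both between shares above 98%. Trap1a had a difference of 2.55 at day 7 (SE 0.93, adjusted p = 0.00735, edgeR), with shares of 100% and 73.7% from 9 and 9.5 reads.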

How the results depend on the processing

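Of the 81 named genes with enough reads 54 were called, none of the 54 changed direction under the 18 alternatives tried, and 23 kept the call under every one that tested them, Xist, Bgn, Col4a5, Timp1, Plp2, Nr0b1, Rlim, Tsix, Pgk1 and Stard8 among them. The counts of 35 genes with more and 72 with fewer mus reads moved with the test: DESeq2 called 16 and 24, edgeR on the day 0 libraries alone 27 and 51, limma on the empirical logit 39 and 91, and the exact binomial test 38 and 82. TMM scaling per allele column gave 53 with more and 52 with fewer. With no replicate block, that is day terms in place of library terms, 28 and 47 were called. Asking in addition for a share at least 10 points from 50% left 23 and 44. Leaving out a library gave 16 to 36 genes with more and 29 to 74 with fewer mus reads, the lowest counts without a day 0 replicate. The summed mus share of 48.6% became 48.5% without Xist, 48.0% without the fibroblast and matrix list and 48.3% without the 10 genes with the most reads, and was 48.6% without either replicate. The median gene, 48.2%, became 48.3% with a minimum of 50 or of 100 reads, and was 48.1% to 48.2% without a replicate. Requiring the intervals of both libraries on one side of 50%, chosen after seeing the data, left 26 and 55. Depth limits the calls: under 100 reads, 16.4% of genes were called.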
